A study of Drosophila ananassae with 54 samples.

Results

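The comparison was between the bodies of 2 stocks of the fruit fly Drosophila ananassae that differ in cold tolerance, KATH and SlowBKK, both kept at 22 °C. Its members were chosen by their labels alone and are 6 of the 54 RNA-seq libraries of the study, 3 of KATH and 3 of SlowBKK. KATH came from Kathmandu and is labelled tolerant to cold, and it was a pool of 3 isofemale lines (stocks each bred from a single wild female). SlowBKK came from Bangkok and is labelled sensitive, and it was a pool of 4 isofemale lines. FastBKK, the stock used for reference, came from Bangkok, is labelled tolerant and was a pool of 4 isofemale lines. All flies were adult males, each body library pooled 10 of them, and control flies were held for 4 days at 22 °C. The same stocks were also measured after 4 days at 10 °C and a recovery period, and in hindgut and Malpighian tubule samples that each pooled 60 individuals. No transgene or mutation was involved.

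Population of origin and cold phenotype differed together between KATH and SlowBKK, so they cannot be told apart here. Levels in FastBKK, which shares its population with SlowBKK and its phenotype with KATH, are given beside them as values. Each stock was a single pool of isofemale lines, and nothing in the labels says that its 3 libraries came from separate cultures. The p-values therefore measure the spread between libraries of these pools, which may be technical, and not the spread between flies of 2 regions. In bulk tissue, fewer cells of a type and less RNA per cell cannot be told apart.

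Insects of tropical origin lose coordination and enter chill coma as they cool, and stocks of a species often differ in how fast they recover. Loss of ion and water balance is a known part of chilling injury in flies. The Malpighian tubules secrete the primary urine and the hindgut reabsorbs ions and water from it. A whole-body library mixes these organs with muscle, fat body, nervous system, gut and, in males, testis and accessory glands.

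The 6 libraries held 32.4 to 37.4 M counts, and 13910 to 13938 of 14365 genes had at least 1 count in each. The biological coefficient of variation, the replicate spread beyond counting error, was 11.1% in the body, against 28.6% in the hindgut and 33.3% in the tubule. On log2 CPM (counts scaled to a fixed library total, with edgeR's TMM to even out library composition), pairs of libraries within a stock correlated across genes at r = 0.989 to 0.993 and pairs between stocks at 0.967 to 0.973. In a principal component analysis of the 6 libraries the first component held 67.5% of the variance and separated the stocks, and the second held 11.4%. No pair agreed within sampling noise, since the chi-square per degree of freedom was 20.1 to 44.7 within stocks. KATH replicates 1 and 4 were the least alike pair within stocks (r = 0.989, chi-square per degree of freedom 44.7), and KATH replicates 2 and 4 the most alike by r (0.993). Among the KATH libraries replicate 4 had the highest share of counts from long genes, as detailed below. Without that replicate 5108 genes were called, against 5065 with it. No gene of the table could be paired with a described gene product, so genes are given by symbol, scaffold and level without a role, and the tissue labels could not be checked against markers.

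Of 13435 genes tested with edgeR's quasi-likelihood F test, 5065 (37.7%) differed between KATH and SlowBKK bodies at an adjusted p under 0.05. In KATH 2117 genes (15.8%) were higher and 2948 (21.9%) were lower. Most of the differences were small. Their median absolute log2 difference was 0.42, and 744 genes (5.54% of those tested) passed a log2 difference of 1, 282 of them higher and 462 lower in KATH. A log2 difference over 2 was seen in 251 called genes (102 higher and 149 lower), and one over 4 in 23 higher and 16 lower genes. All 3 libraries of one stock lay beyond all 3 of the other for 4854 of the 5065 called genes (95.8%), and for 6675 of the 13435 tested (49.7%).

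The split between higher and lower genes depended on how libraries were scaled. Upper-quartile scaling gave 2819 higher and 2340 lower genes, DESeq2's size factors in the edgeR fit gave 2382 and 2689, and a fit of these 6 libraries alone gave 2320 each. The median log2 difference over all tested genes was -0.035 with TMM and 0.024 with upper-quartile scaling. Without KATH replicate 4 the split was 2636 higher against 2472 lower, without SlowBKK replicate 2 it was 2099 against 1975, without SlowBKK replicate 3 it was 2106 against 1947 and without SlowBKK replicate 4 it was 2342 against 2211. More genes were still lower with DESeq2's size factors, with the gene length trend removed (2007 higher, 2567 lower) and without KATH replicate 1 (1721 and 2384) or 2 (1595 and 2279). The excess of lower genes thus turned under some settings and not others. Each of the 31 genes named by rule kept its direction under all of them. These genes were chosen among the called genes of the same data, so this was likely from the start and lends no support.

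**Figure D1:**
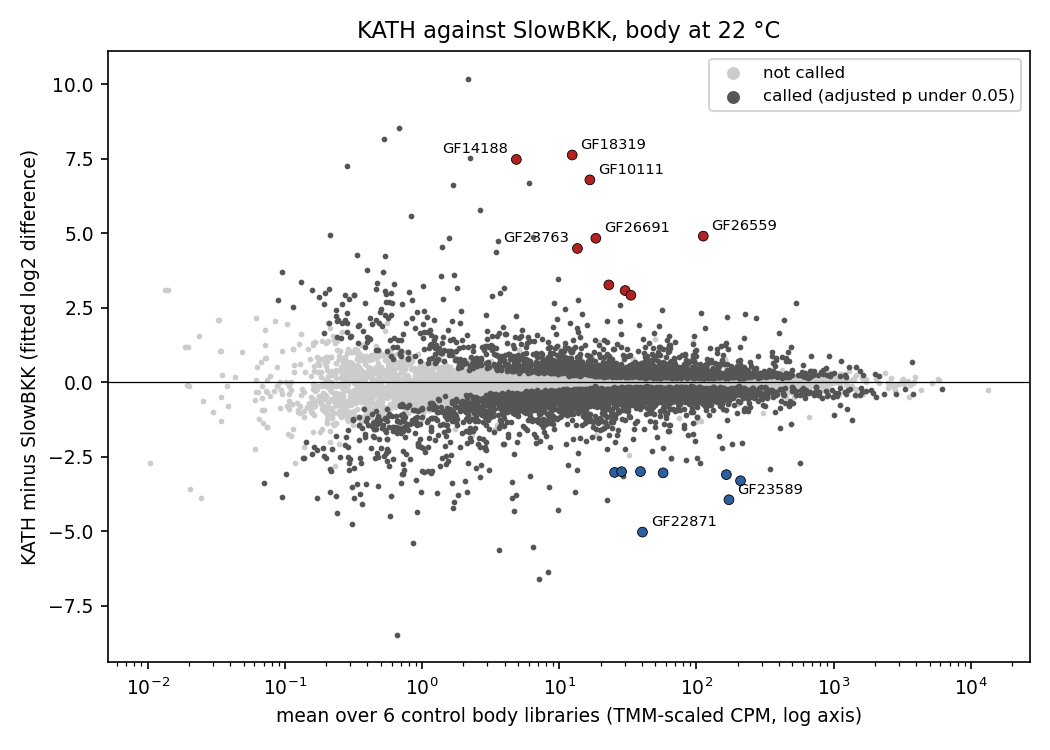
Fitted log2 difference between KATH and SlowBKK bodies at 22 °C (vertical axis) against the mean of the 6 libraries in TMM-scaled CPM (horizontal log axis), with 1 point per tested gene called genes in dark grey and genes of the 2 sets with the widest differences in colour. Called genes, 2117 higher and 2948 lower in KATH, lie on both sides of 0, and the widest differences are among genes of low and middle abundance.

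The share of genes called was larger among abundant genes, from 28.0% in the class of lowest mean CPM to 46.0% in class 4 and 42.5% in class 5, the most abundant, of 5 equal classes. The share with a called log2 difference over 1 went the other way, from 16.1% in the lowest class to 1.97% in the highest. Large differences between the stocks were thus mostly in weakly expressed genes. Calls were spread over the genome: on the 11 scaffolds with at least 200 tested genes, between 34.3% and 41.2% of genes were called.

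Several genes were expressed in KATH bodies and close to the detection limit in SlowBKK bodies. GF18319 (FBgn0095337, scaffold 13340) measured 26.4, 26.9 and 20.9 CPM in KATH and 0.126, 0.0949 and 0.144 CPM in SlowBKK. The log2 difference was 7.62 ± 0.43 (SE; edgeR adjusted p = 8.24e-09). FastBKK was also low, at 0.27 to 1.26 CPM.

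GF14188 was the single gene with every SlowBKK library at 3 counts or fewer and every KATH library at 5 CPM or more. It measured 10.5, 10.8 and 7.70 CPM in KATH, whereas the 3 SlowBKK libraries held 5 counts together. The ratio of the levels was 190, with an exact binomial 95% interval of 81.3 to 588 that covers counting error only, and edgeR gave a log2 difference of 7.47 ± 0.55 (adjusted p = 1.2e-07). No gene met the reverse rule, at 5 CPM or more in SlowBKK and at 3 counts or fewer in KATH.

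GF10111 (FBgn0087152, scaffold 13337) varied widely among the KATH libraries, at 59.2, 27.3 and 12.9 CPM in replicates 1, 2 and 4. In SlowBKK it measured 0.91 CPM in replicate 2 and 0 in the other 2 libraries. It differed by 6.79 ± 0.84 on the log2 scale (edgeR adjusted p = 2.21e-05).

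GF26559 (FBgn0273782, scaffold 12943) was the most abundant of the 8 genes named for the highest log2 differences, at 230, 189 and 232 CPM in KATH. SlowBKK libraries held 11.4, 7.78 and 2.74 CPM, a log2 difference of 4.90 ± 0.55 (edgeR adjusted p = 9.5e-06). GF26691 (FBgn0273914, scaffold 13335) measured 35.7, 41.0 and 30.6 CPM in KATH and 0.784, 1.11 and 1.84 CPM in SlowBKK. Its log2 difference was 4.83 ± 0.30 (adjusted p = 1.78e-08), and FastBKK lay between the other stocks at 4.81 to 8.15 CPM. GF23763 (FBgn0100757, scaffold 13337) differed by 4.49 ± 0.39 (adjusted p = 6.5e-07), with means of 26.0 ± 7.37 CPM in KATH and 1.16 ± 0.562 CPM in SlowBKK (SD, n = 3 each).

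The other 3 genes of this set had smaller differences. GF20381 (FBgn0097388) measured 54 ± 5.70 CPM in KATH and 6.44 ± 2.12 CPM in SlowBKK, and GF27326 (FBgn0274549) measured 58.8 ± 4.54 and 7.80 ± 1.90 CPM (SD, n = 3 each). Their log2 differences were 3.07 ± 0.34 and 2.92 ± 0.20 (edgeR adjusted p = 9.85e-06 and 5.93e-08). For both, the KATH libraries were close together and well above every Bangkok library. GF10076 (FBgn0087117) depended on single libraries: it measured 83.3, 27.9 and 13.7 CPM in KATH, 10.6, 1.39 and 1.09 CPM in SlowBKK and 6.62, 10.8 and 54.2 CPM in FastBKK. Its log2 difference of 3.26 ± 0.96 (adjusted p = 0.014) was not called once KATH replicate 1 (2.26, adjusted p = 0.085), SlowBKK replicate 3 (2.89, adjusted p = 0.0544) or SlowBKK replicate 4 (2.84, adjusted p = 0.0505) was left out.

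Among genes lower in KATH, GF22871 (FBgn0099865, scaffold 12911) had the lowest log2 difference of the set. It measured 2.97, 2.20 and 2.02 CPM in KATH and 79.9, 89.5 and 66.0 CPM in SlowBKK, with FastBKK at 44.8 to 51.8 CPM. It differed by -5.03 ± 0.19 on the log2 scale (edgeR adjusted p = 1e-10), and no KATH library came near the Bangkok stocks.

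GF23589 (FBgn0100583, scaffold 13337) was abundant in Bangkok flies, at 303, 428 and 241 CPM in SlowBKK and 692 to 817 CPM in FastBKK. KATH libraries held 18, 23.4 and 21.7 CPM, a log2 difference of -3.95 ± 0.47 (edgeR adjusted p = 1.51e-05). GF23208 (FBgn0100202, scaffold 12943) was similar in its levels, with 44.3, 35.5 and 35.5 CPM in KATH, 365, 360 and 418 CPM in SlowBKK and 325 to 496 CPM in FastBKK. It differed by -3.31 ± 0.44 (adjusted p = 4.12e-05).

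Of the other 5 genes named for the lowest log2 differences, GF21887 (FBgn0098887) measured 8.69 ± 2.31 CPM in KATH and 69.5 ± 6.58 CPM in SlowBKK (SD, n = 3 each), a log2 difference of -3.00 ± 0.25 (edgeR adjusted p = 3.78e-07). GF25227 and GF25229, both on scaffold 13337, differed by -3.04 ± 0.30 and -3.00 ± 0.21 (adjusted p = 2.75e-06 and 6.36e-08). GF25227 measured 10.3 to 13.9 CPM in KATH and 68.6 to 153 CPM in SlowBKK, and GF25229 measured 5.34 to 7.87 and 36.6 to 69.1 CPM. GF19548 and GF19543 belong to a group on scaffold 13335 described below.

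**Figure D2:**
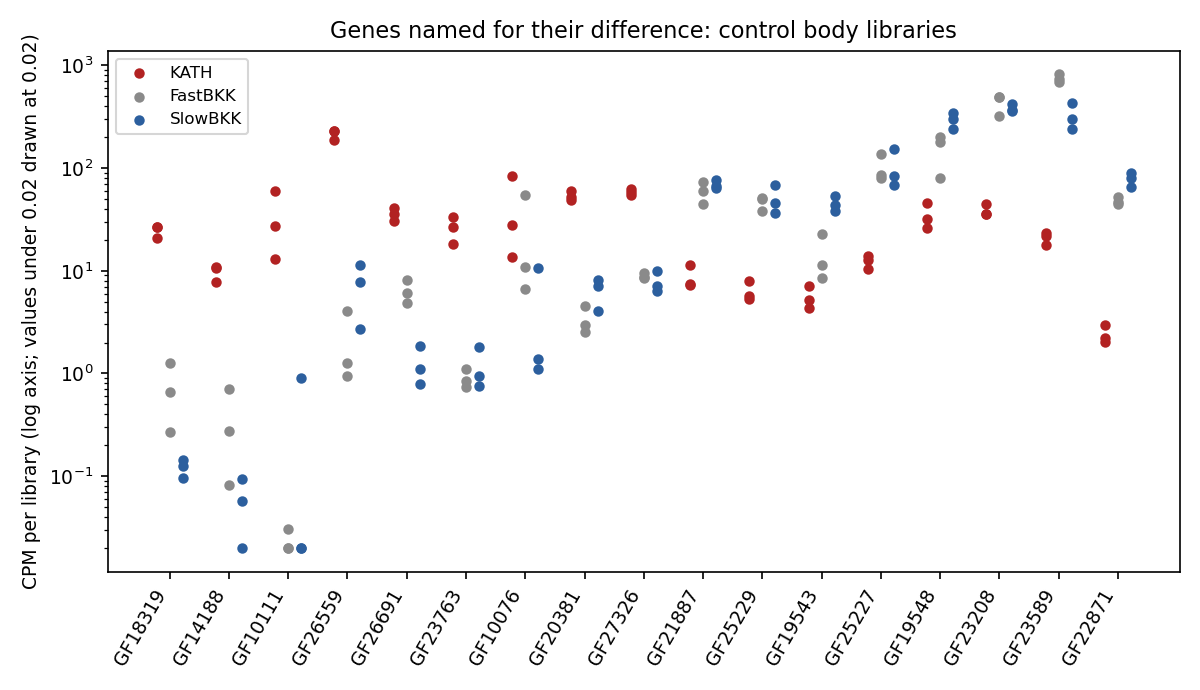
Level of 17 genes in each control body library of KATH, FastBKK and SlowBKK, in TMM-scaled CPM on a log axis, with values under 0.02 CPM drawn at 0.02 and 1 point per library. The rule that chose the genes required KATH and SlowBKK libraries not to overlap, or at most 3 counts in one stock for GF14188. For GF10076, whose KATH libraries span 13.7 to 83.3 CPM, FastBKK overlaps both.

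Of the 3 most abundant genes each way with a log2 difference of at least 1, GF18086 (FBgn0095104, scaffold 13340) had the highest difference. It measured 879, 954 and 940 CPM in KATH and 136, 149 and 155 CPM in SlowBKK, a log2 difference of 2.65 ± 0.24 (edgeR adjusted p = 8.09e-07), and FastBKK lay between at 248 to 336 CPM. GF18504 (FBgn0095522, scaffold 13340) measured 675 ± 6.39 CPM in KATH and 297 ± 50.1 CPM in SlowBKK (SD, n = 3 each), a log2 difference of 1.19 ± 0.17 (adjusted p = 8.51e-05). GF28170 (FBgn0275393, scaffold 13117) varied more, at 945, 587 and 584 CPM against 237, 166 and 92.3 CPM, and differed by 2.09 ± 0.53 (adjusted p = 0.00578).

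Downward, GF12828 (FBgn0089862, scaffold 13266) measured 562, 782 and 1028 CPM in KATH and 1690, 1993 and 2090 CPM in SlowBKK. It differed by -1.28 ± 0.19 on the log2 scale (edgeR adjusted p = 9.28e-05). In the tubule, whose libraries were scaled separately, GF12828 averaged 11638 CPM in KATH and 15019 CPM in SlowBKK, and there the difference did not pass the test (log2 -0.36, adjusted p = 0.513). GF16231 (FBgn0093253, scaffold 13340) measured 639 ± 11.7 CPM in KATH and 1369 ± 358 CPM in SlowBKK (SD, n = 3 each), and GF24808 (FBgn0101801, scaffold 13337) measured 150 ± 18.3 and 983 ± 397 CPM. Their log2 differences were -1.10 ± 0.16 and -2.72 ± 0.30 (adjusted p = 9.86e-05 and 7.5e-06).

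Some large differences lay in genes below the 10 CPM mean required for naming, and these were chosen after their values were seen. GF24349 (FBgn0101343, scaffold 13337) had 165, 168 and 131 counts in the KATH libraries, 4.72, 4.51 and 3.68 CPM, and 0 counts in each SlowBKK and FastBKK control body library. Set against a floor of 3 counts per SlowBKK library, it was at least 46.9-fold higher in KATH. GF18223 (FBgn0095241, scaffold 13340) went the other way, with 0 counts in the KATH libraries and 42, 20 and 68 counts in SlowBKK, and was at least 15.6-fold lower in KATH. FastBKK had 0 counts of GF18223 in each control body library and at most 0.0839 CPM in a FastBKK body library after 10 °C.

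The difference between the stocks was measured again in 18 further libraries that share none with the 22 °C bodies. Both body comparisons came from 1 fit, however, so their calls share its estimate of each gene's spread. In bodies after 10 °C, 3545 of 13435 genes (26.4%) were called by edgeR, 1769 higher (13.2%) and 1776 lower (13.2%) in KATH. In the hindgut at 22 °C 1126 of 11323 genes (9.94%) were called, 546 higher (4.82%) and 580 lower (5.12%). Without FastBKK hindgut control replicate 3, which enters this fit through the shared scaling, filter and spread, 1309 were called, and without single compared libraries the count fell as low as 622 (SlowBKK replicate 1), with 649 without SlowBKK replicate 2 and 744 without KATH replicate 5. In the tubule at 22 °C 1382 of 10132 genes (13.6%) were called, 683 higher (6.74%) and 699 lower (6.9%), and 849 were called without SlowBKK replicate 2 and 865 without SlowBKK replicate 1. A log2 difference over 1 was called for 679 genes (5.05%) in 10 °C bodies, 534 (4.72%) in the hindgut and 583 (5.75%) in the tubule, shares close to the 5.54% in 22 °C bodies. The replicate spread in the organs was more than that in the body, as given above, and their counts of calls are not a measure of how far the stocks differ there.

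Of the 5065 genes called in 22 °C bodies, 1387 were called with the same sign in 10 °C bodies, which is 27.4% of the first list and 39.1% of the second, and 296 were called with the opposite sign. For comparison, 26.4% of all genes tested at 10 °C were called in either direction. Of the 8370 genes not called in 22 °C bodies, 1114 (13.3%) were called at 10 °C with the sign of their 22 °C difference and 748 with the opposite. The share called with the same sign was larger among genes with larger differences. Of the 744 called genes over 1 on the log2 scale, 392 (52.7%) were called with the same sign at 10 °C and 12 with the opposite one, and of the 251 over 2, 160 (63.7%) and 5. Across all 13435 genes the log2 differences at the 2 temperatures correlated at r = 0.565 and rho = 0.317, a description over genes, which are not independent replicates.

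Of the called genes, 4156 were also tested in the hindgut, where 556 (13.4% of these and 49.4% of the hindgut's calls) were called with the same sign and 55 with the opposite, beside 9.94% of all genes called there in either direction. In the tubule 530 of 3679 (14.4%, and 38.4% of the tubule's calls) were called with the same sign and 118 with the opposite, beside 13.6% of all genes called there in either direction. Among genes not called in the body, 365 of 7064 (5.17%) were called with the same sign in the hindgut and 137 with the opposite. In the tubule these were 439 of 6402 (6.86%) and 279. Called or not, the sign was the same for 66.1% of the body's calls in 10 °C bodies, 74.6% of those tested in the hindgut and 61.6% of those tested in the tubule. For genes not called in 22 °C bodies these shares were 54.2%, 58.5% and 55.2%. Among genes over 2 on the log2 scale in the body, 92 of the 168 tested in the hindgut (54.8%) and 48 of the 113 tested in the tubule (42.5%) were called with the same sign, with 1 opposite call in each organ. Correlations across genes with the body difference were r = 0.439 (rho = 0.415) for the hindgut and r = 0.232 (rho = 0.220) for the tubule.

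A set of 109 genes was called with 1 sign in all 4 comparisons, 1.11% of the 9819 tested in all 4 and 2.15% of the 5065 body calls. In KATH 43 of them were higher and 66 lower, and 52 passed a log2 difference of 1 in every comparison. Of the higher genes, GF27326 had nearly the same difference throughout: 2.92 ± 0.20 in 22 °C bodies, 3.06 ± 0.20 in 10 °C bodies, 2.85 ± 0.22 in the hindgut and 3.63 ± 0.34 in the tubule (log2 ± SE; edgeR adjusted p at most 1.09e-05). GF26691 measured 40.4 CPM in KATH hindgut and 0.653 CPM in SlowBKK hindgut, a difference of 5.92 ± 0.57 (adjusted p = 2.34e-05). GF23763 averaged 201 CPM in KATH tubules and 21.0 CPM in SlowBKK tubules, and differed there by 3.26 ± 0.41 (adjusted p = 0.000109).

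GF17409 (FBgn0094427, scaffold 13340) measured 120, 99.1 and 65.4 CPM in KATH bodies and 17.2, 20.5 and 15.9 CPM in SlowBKK bodies, a log2 difference of 2.41 ± 0.27 (edgeR adjusted p = 9.91e-06). It differed by 1.79, 2.44 and 2.27 in 10 °C bodies, hindgut and tubule (adjusted p = 0.000201, 0.000125 and 7.34e-05). GF17407, on the same scaffold and with a neighbouring symbol, had much the same profile, at 223, 194 and 123 CPM in KATH and 37.7, 39.6 and 31.3 CPM in SlowBKK (2.31 ± 0.26, adjusted p = 1.09e-05). GF17407 was added for this likeness after its values were seen, and whether the pair share reads was not checked. Among the genes named by rule as higher in KATH in every comparison, only GF12119 (FBgn0089158, scaffold 13266) had FastBKK as high as KATH. GF12119 measured 31.7 to 44.2 CPM in KATH bodies, 35.0 to 63.3 CPM in FastBKK and 7.12 to 10.8 CPM in SlowBKK. Its log2 difference between KATH and SlowBKK was 2.06 ± 0.27 in 22 °C bodies and 3.25 ± 0.28, 3.51 and 3.99 in the other 3 comparisons (edgeR adjusted p = 3.4e-05, 6.62e-07, 0.00397 and 0.000254).

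Of the 109, some weakly expressed genes had wide differences in all 4 comparisons, and 4 of these are given here, chosen after their values were seen. GF13858 (FBgn0090885, scaffold 12935) measured 10.6, 12.7 and 12.2 CPM in KATH bodies and 0, 0.158 and 0.173 CPM in SlowBKK bodies, a log2 difference of 6.68 ± 0.41 (edgeR adjusted p = 1.74e-08). It differed by 7.02 ± 0.40 in 10 °C bodies, 7.42 ± 0.55 in the hindgut and 6.17 ± 0.75 in the tubule, and FastBKK bodies held 0.0606 to 0.378 CPM. The gene was thus counted at a steady level in KATH and hardly at all in either Bangkok stock. GF26477 (FBgn0273700, scaffold 12916) was the reverse, at 0.114, 0.188 and 0.112 CPM in KATH and 13.2, 4.68 and 24 CPM in SlowBKK bodies (-6.62 ± 0.99, adjusted p = 0.000122), with 10.8 to 33.2 CPM in FastBKK. GF23344 and GF27558, both on scaffold 12911, were also lower in KATH, by -3.51 ± 0.31 and -4.32 ± 0.26 in 22 °C bodies and by -6.85 ± 0.71 and -5.94 ± 0.50 in the hindgut (adjusted p = 6.5e-07, 1.46e-08, 3.86e-05 and 6.16e-06). In FastBKK bodies they lay between the other stocks, at 3.43 to 5.59 CPM for GF23344 and 3.64 to 5.82 CPM for GF27558.

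**Figure D3:**
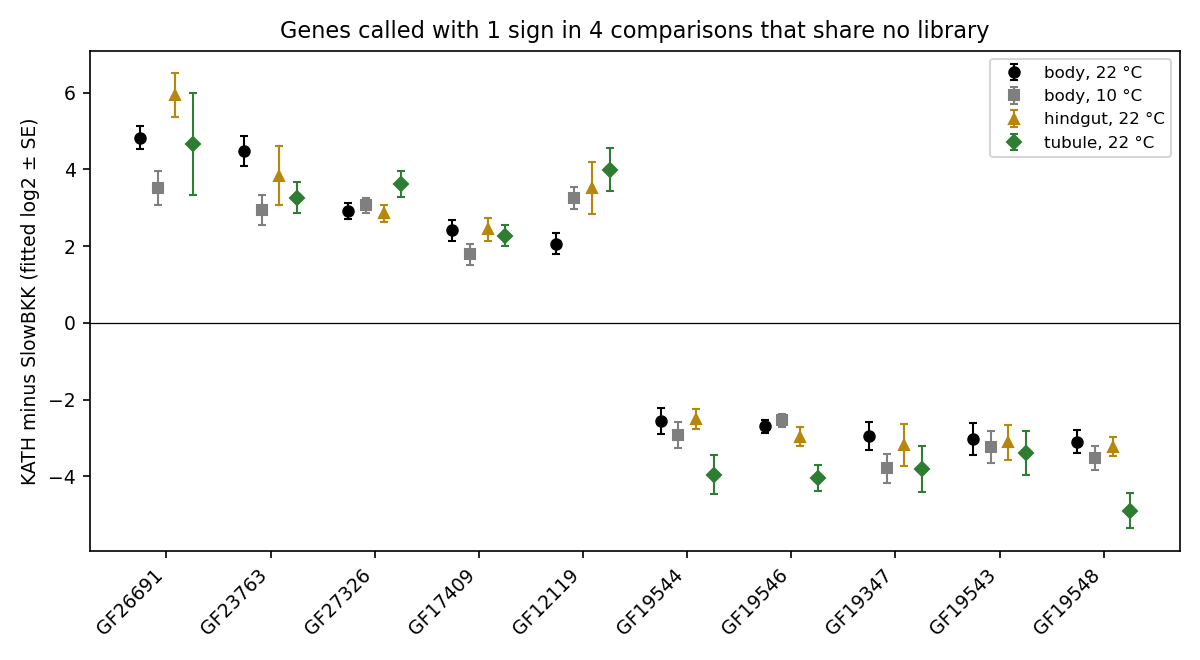
Fitted log2 difference between KATH and SlowBKK, with SE bars, for the 10 genes named for their difference in all of 22 °C bodies, 10 °C bodies, hindgut and tubule. GF27326 stays between 2.85 and 3.63 in all 4 comparisons, and the 5 lower genes, all on scaffold 13335, have their lowest values in the tubule, by a small margin for GF19347.

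Scaffold 13335 held 11 of the 109 genes, 7.05% of the 156 of its genes tested in all 4 comparisons against 1.11% over all scaffolds. This was noticed in the data and not tested. GF26691 was the one higher in KATH. The other 10 were lower and had symbols in 2 runs, GF19344, GF19345, GF19347, GF19349 and GF19350, and GF19543, GF19544, GF19546, GF19547 and GF19548. Their gene lengths in the table were alike, at 756 to 1263 bases. In 22 °C bodies their log2 differences ran from -3.10 to -1.42 (median -2.59). GF19545, with a symbol inside the second run, went the other way near the detection limit. It averaged 0.157 CPM in KATH and 0.0211 CPM in SlowBKK (log2 2.74, edgeR adjusted p = 0.023).

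The most abundant of the 10 was GF19344, at 111, 77.7 and 62.3 CPM in KATH and 400, 331 and 312 CPM in SlowBKK (log2 -2.05 ± 0.24, edgeR adjusted p = 1.6e-05). GF19548 (FBgn0096555) measured 45.3, 32 and 26.2 CPM in KATH and 300, 242 and 346 CPM in SlowBKK (-3.10 ± 0.30, adjusted p = 2.22e-06), and in the tubule it averaged 17.4 against 516 CPM (-4.89 ± 0.46, adjusted p = 1.13e-05). GF19546 (FBgn0096553) was the steadiest, at 29.1, 27.5 and 28.1 CPM against 201, 187 and 162 CPM (-2.70 ± 0.17, adjusted p = 2.24e-08). These CPM levels are not corrected for length. GF19544 (FBgn0096551) differed by -2.55 ± 0.33, GF19347 (FBgn0096357) by -2.95 ± 0.36 and GF19543 (FBgn0096550) by -3.03 ± 0.42 (adjusted p = 3.44e-05, 1.92e-05 and 5.85e-05).

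Summed over the 10 genes, KATH bodies held 346, 260 and 220 CPM and SlowBKK bodies 1502, 1256 and 1554 CPM at 22 °C. FastBKK bodies held 559 CPM in replicate 1 and 1309 and 1327 CPM in the other 2, so 1 FastBKK library lay apart from the rest of its stock. After 10 °C the sums were 293 to 336 CPM in KATH, 1822 to 2405 CPM in SlowBKK and 1519 to 1682 CPM in FastBKK. The stocks kept their distance at both temperatures and in both organs, where single-gene differences ran from -3.23 to -1.15 in the hindgut and from -4.89 to -2.70 in the tubule. No sequence of these genes was used here, so whether they are near-identical copies among which reads could be split was not checked, and they may not be 10 separate measurements.

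The calls followed gene length in 22 °C bodies. With the tested genes in 5 equal classes of 2687 by length, the shortest class had 624 genes higher in KATH (23.2%) and 321 lower (11.9%), and the longest class had 144 higher (5.36%) and 1165 lower (43.4%). The median log2 difference was 0.09 in the shortest class and -0.21 in the longest, small beside the differences of the genes named above. The trend was -0.072 log2 units per doubling of length, against 0.0097 in 10 °C bodies, where the longest class had 323 genes higher and 225 lower. In the organs at 22 °C it had the sign of the 22 °C bodies. It was -0.041 in the hindgut, where the longest class had 49 genes higher and 124 lower, and -0.105 in the tubule, with 112 and 128. The rank correlation with length was -0.254 in 22 °C bodies, 0.053 in 10 °C bodies, -0.143 in the hindgut and -0.072 in the tubule. The median log2 difference of the longest class was -0.061 in the hindgut and 0.002 in the tubule. The steeper slope in the tubule was thus not matched by ranks or by this median.

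The long genes took a share of counts that differed among the KATH libraries themselves. The longest class held 19.1%, 20.1% and 22.1% of counts in KATH replicates 1, 2 and 4, and 22.5%, 22.2% and 22.0% in SlowBKK replicates 2, 3 and 4. KATH replicate 4 thus lay within the SlowBKK values. With single libraries left out, the number of long genes called lower ran from 728 (without SlowBKK replicate 2) and 742 (without SlowBKK replicate 3) to 1132 (without KATH replicate 4). Lower calls fell over all genes as well, to 1968 of the 13435 genes of the main fit without SlowBKK replicate 2. Removing the length trend from every library, a step that evens out the length classes by design, left 552 long genes lower and 457 higher. The part of this length trend in the calls was not tested.

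A second pattern concerned genes tested in the body that were low in both organs, grouped after values had been seen. Of the 3890 tested genes with a median under 1 CPM in both the hindgut and the tubule of KATH and SlowBKK at 22 °C, 1118 (28.7%) were higher in KATH bodies and 494 (12.7%) lower. Among the 9545 genes at 1 CPM or more in either organ, 999 (10.5%) were higher and 2454 (25.7%) lower. The lean was widest in the 864 organ-low genes with a body mean of at least 50 CPM, of which 476 (55.1%) were higher in KATH and 36 (4.17%) lower. Over all tested genes these shares were 15.8% and 21.9%, and in the most abundant of the 5 classes by mean CPM 22.6% and 19.9%. The differences of the 864 genes were small, with a median of 0.19 on the log2 scale and 12 called genes over 1.

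This lean was seen in every length class, from 114 of 164 genes higher (69.5%) in the shortest to 28 of 74 (37.8%) in the longest. With the length trend removed the order of the classes turned, from 53 of 164 (32.3%) in the shortest to 54 of 74 (73.0%) in the longest, so the gradient with length depends on that step. Over all 864 genes that removal gave 398 higher and 47 lower, upper-quartile scaling gave 573 and 27, and leaving out single libraries gave between 369 and 560 higher. Together the 864 genes took 16.7%, 17.2% and 17.2% of counts in KATH bodies and 15.2%, 14.8% and 16% in SlowBKK bodies, without overlap, and 14.9% to 16.4% in FastBKK. At 10 °C the share was 12.9% to 14.1% in KATH and 13.2% to 14.0% in SlowBKK, which overlap. There 184 of the 864 genes (21.3%) were called higher in KATH and 101 (11.7%) lower, against 13.2% each way over all tested genes. Which organs these genes mark is not given here, since their symbols could not be tied to described genes, and the part of the length trend in the pattern was not tested beyond these values.

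**Figure D4:**
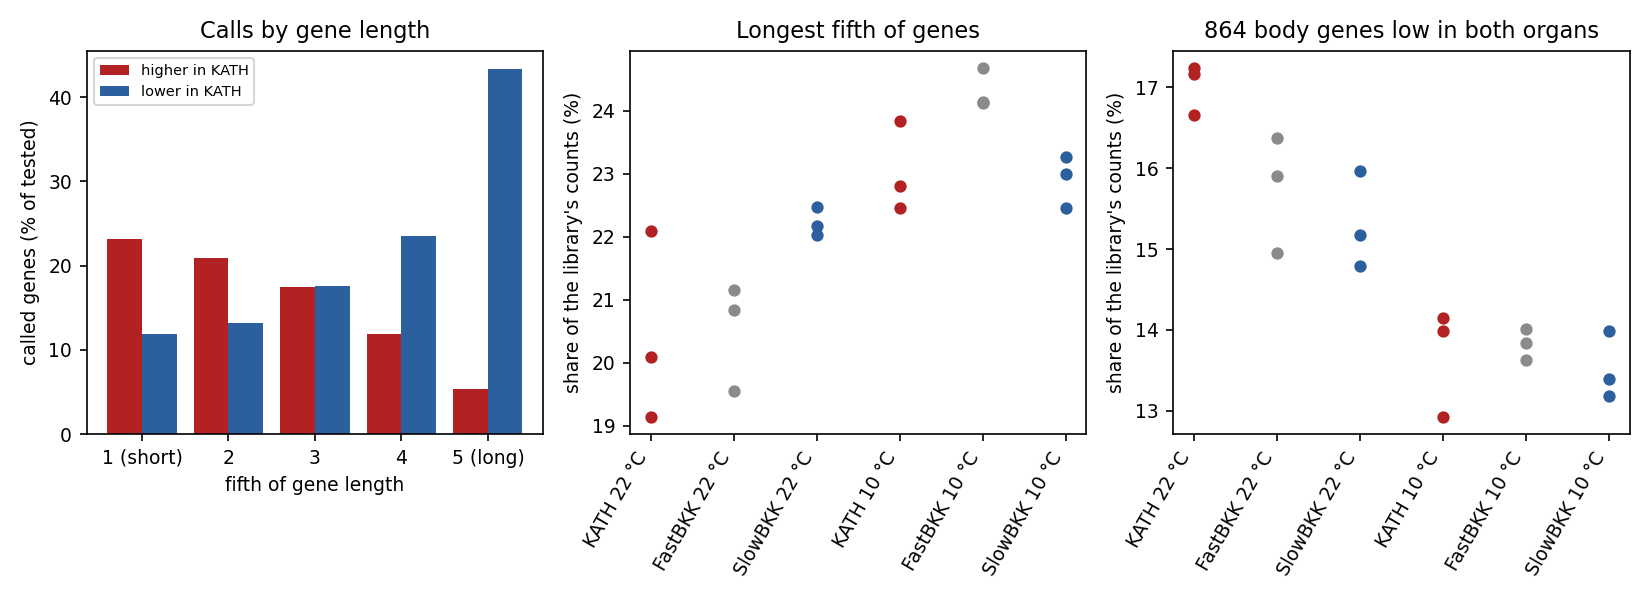
Left, share of tested genes called higher or lower in KATH bodies at 22 °C in 5 classes of gene length. Middle and right, share of each body library's counts taken by the longest class and by the 864 body genes low in both organs, with 1 point per library and vertical axes that do not start at 0. The lower calls reach 43.4% in the longest class, and the 864 genes take more of the counts in the 3 KATH libraries at 22 °C than in the SlowBKK libraries, with overlap at 10 °C.

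The stock difference itself depended on temperature for many genes. The interaction, which compares the cold response of KATH bodies with that of SlowBKK bodies and so shares the 6 control libraries, was called by edgeR in 2793 of 13435 genes (20.8%), 1691 with a higher (12.6%) and 1102 with a lower (8.2%) response in KATH, and in 460 genes (3.42%) over a log2 difference of 1. This split also depended on scaling. Upper-quartile scaling gave 1242 higher and 1755 lower, DESeq2's size factors in the edgeR fit gave 1612 and 1172, and a fit of KATH and SlowBKK bodies alone gave 1519 and 1333. Cold flies had been held for 4 days at 10 °C and given a recovery period, so a response covers both.

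GF22463 (FBgn0099459, scaffold 12943) had the smallest p and changed places between the stocks. At 22 °C it measured 49.6, 53.0 and 60.0 CPM in KATH and 240, 269 and 247 CPM in SlowBKK (log2 -2.22 ± 0.14, edgeR adjusted p = 2.01e-08). After 10 °C it averaged 260 ± 17.5 CPM in KATH and 122 ± 18.2 CPM in SlowBKK (SD, n = 3 each), a difference of 1.09 ± 0.13 (adjusted p = 2.57e-05). FastBKK followed the direction of SlowBKK, with 254 ± 33.1 CPM at 22 °C and 150 ± 30.3 CPM after 10 °C (SD, n = 3 each). The interaction was 3.31 ± 0.19 (adjusted p = 8.7e-08).

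GF18358 (FBgn0095376) and GF13758 (FBgn0090785) also changed sign. GF18358 measured 30.7 ± 0.613 CPM in KATH and 56.3 ± 3.10 CPM in SlowBKK at 22 °C, and 24.7 ± 3.69 and 7.44 ± 1.72 CPM after 10 °C (SD, n = 3 each). GF13758 measured 22.3 ± 0.234 and 35.6 ± 1.06 CPM at 22 °C, and 12.3 ± 0.216 and 7.42 ± 0.555 CPM after 10 °C. Both were lower in KATH at 22 °C (log2 -0.88 ± 0.13 and -0.68 ± 0.07; edgeR adjusted p = 0.000137 and 6.41e-06) and higher after 10 °C (1.73 ± 0.15 and 0.73 ± 0.08; adjusted p = 5.53e-07 and 7.32e-06).

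For other genes the difference seen at 22 °C was smaller or did not pass the test at 10 °C. GF24808, lower in KATH at 22 °C, averaged 114 ± 30.5 CPM in KATH and 83.7 ± 9.24 CPM in SlowBKK after 10 °C (SD, n = 3 each; log2 0.44, edgeR adjusted p = 0.262). GF12828 averaged 1510 ± 203 and 1591 ± 224 CPM after 10 °C (log2 -0.08, adjusted p = 0.796). GF26559 averaged 170 ± 44.0 CPM in KATH and 83.0 ± 32.4 CPM in SlowBKK after 10 °C (log2 1.03 ± 0.46, adjusted p = 0.104), against 217 ± 23.8 and 7.31 ± 4.36 CPM at 22 °C. FastBKK, like SlowBKK, had a higher mean of GF26559 after 10 °C, 53.7 ± 29.1 CPM against 2.09 ± 1.71 CPM at 22 °C (SD, n = 3).

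GF18319 averaged 0.720 ± 0.218 CPM in KATH after 10 °C, far below its 22 °C level, and 0.0895 ± 0.0526 CPM in SlowBKK (SD, n = 3 each), a difference of 2.96 ± 0.64 (edgeR adjusted p = 0.00304). GF22871 averaged 10.9 ± 2.21 CPM in KATH and 93.1 ± 10.7 CPM in SlowBKK after 10 °C, and the difference of -3.09 ± 0.17 (adjusted p = 5.02e-09) was smaller in size than at 22 °C. GF25227 and GF25229 differed by -0.91 ± 0.29 and -1.07 ± 0.20 after 10 °C (adjusted p = 0.03 and 0.00114). By contrast GF20381 differed by 3.05 ± 0.34 after 10 °C and GF23589 by -3.96 ± 0.53 (adjusted p = 9.86e-06 and 5.96e-05). Their interactions were -0.02 ± 0.46 and -0.01 ± 0.60 (edgeR adjusted p = 0.98 and 0.99), and these SEs leave room for changes in either direction. The level of GF23589 was much lower in the cold, at 2.14 ± 1.67 CPM in KATH and 33.9 ± 18.5 CPM in SlowBKK (SD, n = 3 each).

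**Figure D5:**
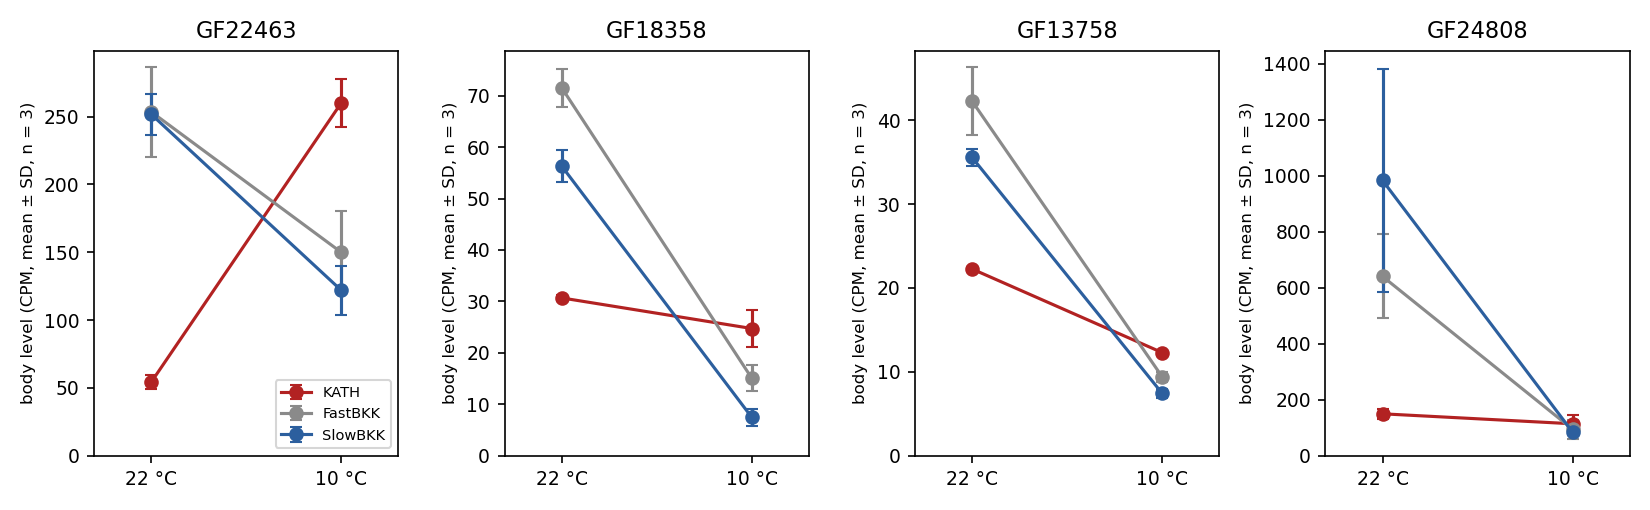
Body level of GF22463, GF18358, GF13758 and GF24808 at 22 °C and after 10 °C in KATH, FastBKK and SlowBKK, in TMM-scaled CPM as mean ± SD of 3 libraries. For GF22463 KATH goes from 54.2 to 260 CPM while both Bangkok stocks have lower means after 10 °C, and for GF24808 the stocks differ at 22 °C and lie together after 10 °C.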

How the data were processed

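RNA was measured in 54 poly-A libraries of adult male flies, per the labels' protocols. The authors deposited raw counts, as whole numbers without normalization, for 14365 genes with their scaffold and length, per the file headers. FastQC 0.11.9 is named in the submitters' processing notes, and the aligner, counter, genome build and use of strand are not given in the sources used here. Gene length, another column of the deposited table, served to form classes and to remove a length trend in 1 alternative. Of the 14365 identifiers and symbols, 0 matched the RefSeq gene table (assembly ASM1763931v2), so planned gene lists and marker checks were not run, and no sequence was printed. Every per-library column matched 1 library (0 columns left over).

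The 18 body libraries were fitted together with edgeR 4.0.16 in R 4.3.3 (filterByExpr with a minimum count of 10, TMM, glmQLFit and glmQLFTest, two-sided), with 1 coefficient per line and treatment, and hindgut and tubule likewise. P-values were adjusted by Benjamini-Hochberg over all genes tested in a contrast, with a threshold of 0.05 for a call. The SE is the fitted log2 difference divided by the root of its F. A count of 3 per library was the floor of detection, and intervals and floors cover counting error only. Libraries of the 6 held 32.4 to 37.4 M counts, so 3 counts are under 0.1 CPM. DESeq2 1.42.0 gave an alternative test. The code was tested on simulated counts.

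Named genes were called genes that were: the 8 highest and 8 lowest with a mean of at least 10 CPM and no overlap; up to 4 each way at 3 counts or fewer in one stock and at least 5 CPM in the other; up to 5 each way called with 1 sign in all 4 comparisons; the 3 most abundant each way over a log2 difference of 1; and the 3 with the smallest interaction p. The comparison, the rule and the classes were chosen with earlier results of these data known.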

Additional observations from a re-analysis of the deposited data

Results flagged for a closer look

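The cold response in the body differed between KATH and SlowBKK in 2793 of 13435 genes, tested as an interaction with edgeR's quasi-likelihood F test. Of the genes named in the report, 3 of them for their small p in this same test and most others for their 22 °C difference, 13 were called, at an adjusted p from 8.7e-08 to 0.0343, and their values are the cold response of KATH minus that of SlowBKK on the log2 scale. Those with a lower response in KATH were GF18319 (-4.66), GF10076 (-4.32), GF26559 (-3.86) and GF18086 (-1.70). Those with a higher response in KATH were GF22463 (3.31), GF24808 (3.16), GF18358 (2.61), GF25227 (2.13), GF22871 (1.94), GF25229 (1.93), GF13758 (1.40), GF12828 (1.21) and GF12119 (1.19). Of these 13, GF22463, GF18358 and GF13758 were called with opposite signs at the 2 temperatures. The control libraries enter both the 22 °C difference and the interaction.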

How the results depend on the processing

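The 31 named genes kept their direction and call in 217 of 217 values under other scalings, filters, models and tests, and in 183 of 186 values with 1 library left out. The 3 lost calls were all of GF10076, and 0 reversed. All 31 had been chosen among the called genes of these same data, so this is no separate support. With each compared replicate left out in turn the count in 22 °C bodies ran from 3874 (without KATH replicate 2 of those bodies) to 5108, in 10 °C bodies from 2511 to 3338, in the hindgut from 622 to 909, in the tubule from 849 to 1053, for the interaction from 1978 to 3260 and for genes called in all 4 comparisons from 87 to 108. Hindgut calls moved most without SlowBKK replicate 1 (622) or 2 (649) or KATH replicate 5 (744), and came to 1309 without FastBKK replicate 3, an alternative added after the data were seen, and tubule calls without SlowBKK replicate 2 (849) or 1 (865). Requiring a log2 difference over 1 left 744 genes in 22 °C bodies, 679 in 10 °C bodies, 534 in the hindgut, 583 in the tubule, 460 for the interaction and 52 in all 4 comparisons, since the criterion is stricter. KATH and SlowBKK control bodies share the numbers 2 and 4, whose deviations correlated at r = -0.166 and 0.0918, so the numbers were not taken to pair the libraries; with a replicate block the counts were 4348 in 22 °C bodies, 3049 in 10 °C bodies, 789 in the hindgut, 970 in the tubule, 2008 for the interaction and 76 in all 4. DESeq2's Wald test called 5216 genes in 22 °C bodies. Depth limits the genes under a few CPM, where single counts move a fold change.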
